A study of Rattus norvegicus with 10 samples.

Results

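Genes of the Wnt pathway were described in mammary tumours of female Sprague-Dawley rats, sampled before and after treatment with hydroxytyrosol, a phenolic compound of olive oil. The set held 45 genes: ligands, receptors, the R-spondin arm, cytoplasmic transducers, nuclear factors and targets. Members were the probe sets to which the platform annotation gave exactly 1 gene symbol, that symbol being in the set. This found 65 probe sets for 40 of the 45 genes, among 14218 genes with such a probe set in all. Wnt7b, Fzd7, Ror1, Ror2 and Rnf43 had none, so no signal of theirs was analysed here. Wnt7a, Wnt10a, Fzd5 and Rspo1 had no probe set whose mean over the 10 arrays exceeded the dim cutoff, and were not tested. That cutoff was a log2 signal of 5.14, which 40% of all probe sets did not exceed on average. The other 36 genes, with 51 probe sets, were tested. Secreted antagonists of the Sfrp and Dkk families were not in the set.

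Each tumour had been induced by 1 oral dose of 7,12-dimethylbenz(a)anthracene (DMBA, 100 mg/kg) and was of Bloom-Richardson grade II. The basal sample was a biopsy taken at 12 weeks of age, at a tumour volume of 2 cm3, with no treatment given. The tumour was sampled again at sacrifice at 19 weeks, 7 weeks after the biopsy, when the rat had received 0.5 mg/kg hydroxytyrosol by gavage on each of 5 weekly days over 6 weeks; the labels call this piece total tumour, whereas the series' design text has Trucut samples at both moments. Both groups held 5 arrays, 1 for each of the tumours 66D2, 67D3, 45D3, 49I1 and 51I1, and values below are listed in that order. All groups carried the DMBA exposure, and tumours of the later age without hydroxytyrosol were not analysed here, so treatment, age, tumour growth and the way of sampling cannot be told apart. The 3′ minus 5′ hexokinase difference, a sign of RNA quality, also went with the moment, with a mean of 1.57 in basal and 1.02 in final arrays. The sample titles number basal and final arrays in separate blocks, whose meaning the labels do not give. These cannot be told apart from treatment either.

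Wnt proteins are secreted lipid-modified ligands that bind Frizzled receptors together with the co-receptors Lrp5 and Lrp6. Binding recruits Dishevelled proteins and stalls the Axin, Apc and Gsk3b complex that otherwise marks beta-catenin for destruction, and beta-catenin then activates targets through TCF and LEF factors. Other ligands, Wnt5a among them, act largely without beta-catenin. In the mammary gland the pathway maintains basal stem cells and mediates progesterone-driven branching, and Wnt1 and Rspo3 are among the genes activated by mouse mammary tumour virus insertion.

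Over the 36 tested genes, final and basal samples did not separate. The median log2 difference, final minus basal, was -0.0044 over the Wnt genes and -0.0095 over all 10839 genes tested, with 17 Wnt genes having a higher and 19 a lower final mean. No member passed limma's Benjamini-Hochberg threshold of 0.05 over all probe sets, and neither did any of the 18625 probe sets. At an unadjusted p under 0.05 stood 1494 probe sets, and the methods' paired t-test gave 1394, with 0 after adjustment. Among the Wnt genes 1 (Lrp5) was higher and 1 (Dvl1) lower at that unadjusted threshold, against 2.78% of all genes higher and 4.36% lower, so both counts were near the background. Only Lrp6 was higher in all 5 tumours, a pattern of 3.52% of all genes, and only Ctnnb1 was lower in all 5, a pattern of 5.27%. Outside 45D3 the Ctnnb1 differences were only -0.003 to -0.024. In none of the 36 genes were the 5 final signals all above or all below the 5 basal signals. Such groups were seen in 1.2% of all genes, so their absence among 36 genes was near that background. The exact sign-flip test over 5 pairs has 32 sign patterns and cannot give a two-sided p below 0.0625.

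What the values did show was spread between tumours. The SD of the 5 paired differences had a median of 0.46 over the Wnt genes and 0.29 over all genes, and 26 of the 36 lay above the median of all genes. A difference of more than 0.5 in either direction was seen in 10 Wnt genes in 66D2 (27.8%, against 15.6% of all genes), 12 in 67D3 (33.3%, against 20.9%), 15 in 45D3 (41.7%, against 24.8%), 4 in 49I1 (11.1%, against 15%) and 14 in 51I1 (38.9%, against 22.2%). The 95% intervals of the mean difference lay wholly within 0.5 of zero for 14 genes and within 1 for 31, so changes of the mean larger than those bounds lay outside the intervals of these genes.

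**Figure D1:**
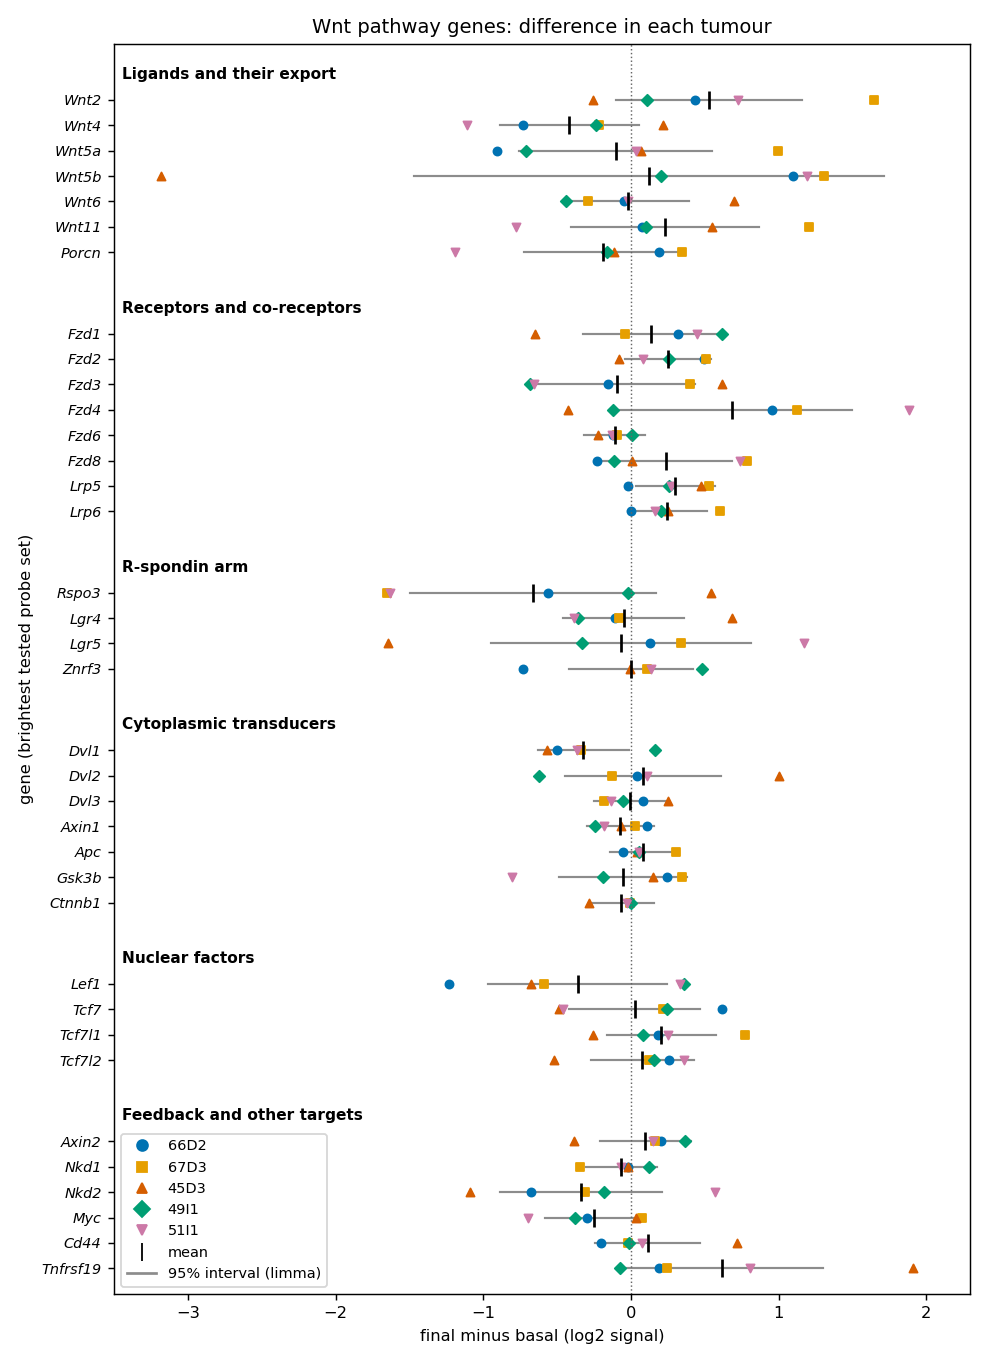
Final minus basal log2 signal (x axis) of the 36 tested Wnt genes (y axis, by role) in each of 5 tumours (coloured symbols), with the mean (black tick) and limma's 95% interval (grey line). Most intervals cross 0, only those of Lrp5 and Dvl1 do not, and the point farthest from 0 is Wnt5b in 45D3 (-3.19).

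Tumour 45D3 stood apart. Its deviations from the group means did not correlate between biopsy and final sample (-0.16, against 0.17 to 0.72 in the other tumours, across probe sets), and its basal array had the highest 3′ minus 5′ hexokinase difference, a sign of RNA quality (2.36, where the other basal arrays had 0.97 to 2.03 and final arrays 0.89 to 1.10), and the lowest GAPDH signal (12.29). Of the 36 Wnt genes, 10 moved one way in the other 4 tumours and the opposite way in 45D3 (27.8%, against 21.5% of all genes). These were Wnt2, Wnt5b, Fzd2, Tcf7l1, Tcf7l2 and Axin2, lower in 45D3 and higher in the rest, and Wnt4, Wnt6, Rspo3 and Lgr4, higher in 45D3 and lower in the rest. The tumours 66D2, 67D3, 49I1 and 51I1 were the odd one out for 2, 0, 4 and 2 Wnt genes, and for 2.54%, 2.84%, 6.7% and 4.58% of all genes. Without 45D3, 5 Wnt genes were higher (Wnt2, Wnt5b, Fzd1, Fzd2 and Fzd4) and 2 lower (Wnt4 and Rspo3) at an unadjusted p under 0.05. The background was then 8.5% higher and 10.7% lower, and none passed after adjustment.

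Cell type markers also differed between the moments, and bulk samples cannot tell fewer cells of a type from less RNA per cell. Luminal markers such as Krt8 and Epcam were measured on all arrays with a list median difference of 0.06 (5 of 7 higher), although the oestrogen receptor Esr1 lay under the dim cutoff. The collagen and fibroblast list had 16 of 16 genes with a higher final mean (median 0.56), with medians by tumour of 0.99, 0.95, -0.93, 0.58 and 0.65. Its log2 summed signal was 14.45 to 15.55 in basal and 14.27 to 16.28 in final arrays. Skeletal muscle markers had 8 of 8 tested genes higher, with medians by tumour of 4.46, 6.70, 0.20, 2.88 and 0.26. Summed signals were 10.52 to 11.45 in basal and 10.81 to 15.32 in final arrays, while Myh2 and Myh4 stayed under the cutoff. The list's median signal was 4.01 to 5.37 in biopsies, about the cutoff of 5.14. Genes of this list could thus pass the filter through their final signals, and the count of 8 of 8 may partly reflect the filter. Adipocyte markers (6 of 6 higher, median 1.22) were lower in 45D3 alone (-1.47), with summed signals of 10.13 to 11.28 and 9.89 to 13.58, and Plin1, Cidec and Lep under the cutoff. Endothelial markers (7 of 7 higher, median 0.44) were lower in 45D3 (-0.90) and 49I1 (-0.16), with summed signals of 9.50 to 10.94 and 10.06 to 11.56. Myoepithelial, macrophage and T and NK lists had medians of -0.06, 0.03 and 0.36. No marker passed the adjusted threshold. Fits with a marker list's median or the hexokinase difference as a covariate are given beside single genes. These covariates themselves differed between the moments, and the fits had fewer than the 4 residual degrees of freedom of the fit without a covariate. They cannot part a covariate from the moment, so the part of these cells in the Wnt values was not tested.

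**Figure D2:**
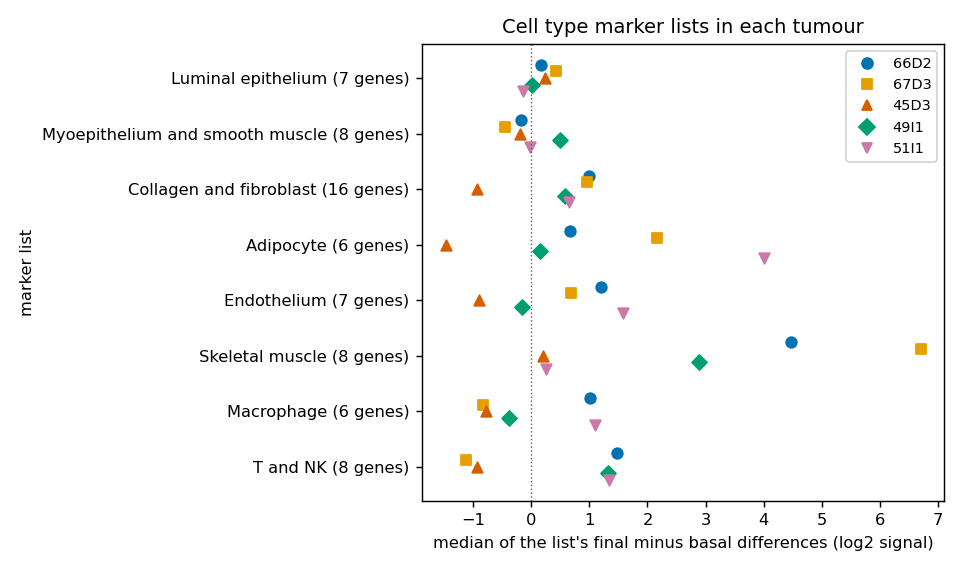
Median final minus basal difference (x axis, log2 signal) of each marker list (y axis, with the number of tested genes) in each of 5 tumours (symbols). The collagen and fibroblast list is below 0 in 45D3 (-0.93) and between 0.58 and 0.99 in the other 4 tumours, and the skeletal muscle list reaches 6.70 in 67D3.

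TCF and LEF factors recognise a core that was searched as CTTTGAT and CTTTGAA on both strands of RefSeq promoter windows (GRCr8, 250 bases before to 50 after the gene start). Of the 45 genes of the set 34 had a window, among them Fzd7, Ror1, Ror2 and Rnf43, which had no probe set. A match was held by 5 of these windows (14.7%), against 8.73% of all 33469 windows. These 5 were Axin2, Nkd1, Tcf7, Cd44 and the unmeasured Fzd7. The windows of the 4 tested genes among them are shown because Axin2, Nkd1 and Tcf7 are textbook targets of the pathway and Cd44 is often listed with them; the capitals mark the matches. Axin2 holds 2 matches, the other windows 1 each, and that of Cd44 is read on the opposite strand. The positions are chr10:94398535-94398834 (+ strand), chr19:34722797-34723096 (- strand), chr10:36954230-36954529 (- strand) and chr3:109699375-109699674 (- strand).
Axin2: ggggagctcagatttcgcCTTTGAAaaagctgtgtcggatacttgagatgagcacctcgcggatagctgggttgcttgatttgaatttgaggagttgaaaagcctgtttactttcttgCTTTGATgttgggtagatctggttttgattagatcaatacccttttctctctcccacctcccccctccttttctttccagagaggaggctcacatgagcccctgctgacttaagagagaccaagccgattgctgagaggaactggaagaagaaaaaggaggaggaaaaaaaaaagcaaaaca
Nkd1: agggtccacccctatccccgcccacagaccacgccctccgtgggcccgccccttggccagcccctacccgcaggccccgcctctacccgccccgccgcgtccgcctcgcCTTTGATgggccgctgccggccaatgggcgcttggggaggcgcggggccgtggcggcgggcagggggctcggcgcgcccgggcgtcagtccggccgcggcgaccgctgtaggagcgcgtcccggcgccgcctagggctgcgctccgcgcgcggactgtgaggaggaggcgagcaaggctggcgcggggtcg
Tcf7: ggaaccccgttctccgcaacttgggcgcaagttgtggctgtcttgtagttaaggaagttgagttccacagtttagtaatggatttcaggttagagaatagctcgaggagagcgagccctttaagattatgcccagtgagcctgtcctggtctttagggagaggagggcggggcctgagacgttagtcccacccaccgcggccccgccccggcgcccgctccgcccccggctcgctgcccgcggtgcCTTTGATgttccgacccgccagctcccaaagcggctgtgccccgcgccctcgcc
Cd44: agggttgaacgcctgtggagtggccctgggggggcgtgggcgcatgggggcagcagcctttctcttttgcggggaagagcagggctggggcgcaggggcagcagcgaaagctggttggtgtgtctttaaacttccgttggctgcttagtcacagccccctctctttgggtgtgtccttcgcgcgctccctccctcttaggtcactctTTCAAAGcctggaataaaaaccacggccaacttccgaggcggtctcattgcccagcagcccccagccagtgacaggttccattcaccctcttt
The log2 differences of these 4 genes lay between -0.07 and 0.11. A match describes letters in the window and is not a shown binding site.

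Among the ligands and their export, 7 of 10 genes were tested, 3 with a higher and 4 with a lower final mean, from -0.42 (Wnt4) to 0.53 (Wnt2), and 0 reached an unadjusted p under 0.05. Wnt4 mediates side branching downstream of progesterone. Wnt4 signals were 9.51, 10.67, 10.33, 10.75 and 10.87 in biopsies and 8.77, 10.45, 10.55, 10.51 and 9.76 in final samples. It was lower in 4 of 5 tumours, most in 51I1, and higher in 45D3, and the groups overlapped. The mean went from 10.42 ± 0.55 to 10.01 ± 0.76 (SD, n = 5), a log2 difference of -0.42 (SE 0.20, limma adjusted p = 0.649), which was -0.58 without 45D3, -0.24 without 51I1, -0.21 with the collagen and fibroblast list as a covariate and -0.72 with the hexokinase difference as one.

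Wnt2, a ligand found in mesenchyme that can act through beta-catenin, was dim. Its biopsy signals were 4.74, 5.20, 5.09, 5.27 and 5.00, and its final signals 5.18, 6.84, 4.83, 5.37 and 5.73. The final samples of 67D3 and 51I1 were the brightest, 4 arrays lay under the cutoff, and all 10 signals were below the BioB spike-in (8.04), the study's sensitivity control. The biopsy mean (5.06) was under the cutoff of 5.14 and the final mean (5.59) above it, so Wnt2 passed the filter through its final samples. Its difference, which is therefore no independent sign of a rise, was 0.53 (SE 0.26, limma adjusted p = 0.656). It was 0.73 without 45D3, 0.25 without 67D3 and -0.014 (SE 0.36) once the skeletal muscle median entered the fit. A second Wnt2 probe set, under the cutoff on average, was also brightest in the final sample of 67D3 (6.69, against 4.64 in its biopsy).

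Wnt5b, a ligand related to Wnt5a, had the widest spread of the set. Its signals were 7.50, 7.01, 9.03, 6.45 and 5.95 in biopsies and 8.60, 8.32, 5.85, 6.66 and 7.14 in final samples. Signal was higher in 4 tumours, by 0.20 to 1.31, and lower in 45D3, with a difference of -3.19, whose biopsy was the brightest and whose final sample was the dimmest of all 10 arrays. The SD of its differences (1.90) was larger than that of 99.3% of all genes. Over 5 tumours the mean difference was 0.12 (SE 0.66, 95% interval -1.47 to 1.71). It was 0.95 without 45D3 (SE 0.20, limma adjusted p = 0.147) and -0.17 without 67D3. With hexokinase as a covariate it was 1.18 (SE 0.70), and with the collagen and fibroblast covariate -0.87 (SE 0.32).

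Wnt5a, which acts mainly outside the beta-catenin route, differed by -0.10, with -0.91 in 66D2 and -0.71 in 49I1, and with 67D3 the only tumour in which it was clearly higher (7.34, then 8.34). Wnt11, another ligand of that kind, differed by 0.23, and its second probe set by 0.01. Both probe sets of Porcn, the acyltransferase that makes Wnts secretable, differed by -0.19, and both were lowest against the biopsy in 51I1 (-1.19 and -0.68). Wnt6 differed by -0.02. The untested ligands Wnt7a and Wnt10a had signals of 3.65 to 4.39 and 4.10 to 5.36, and Wnt10a exceeded the cutoff only in the biopsies of 45D3 (5.23) and 51I1 (5.36).

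**Figure D3:**
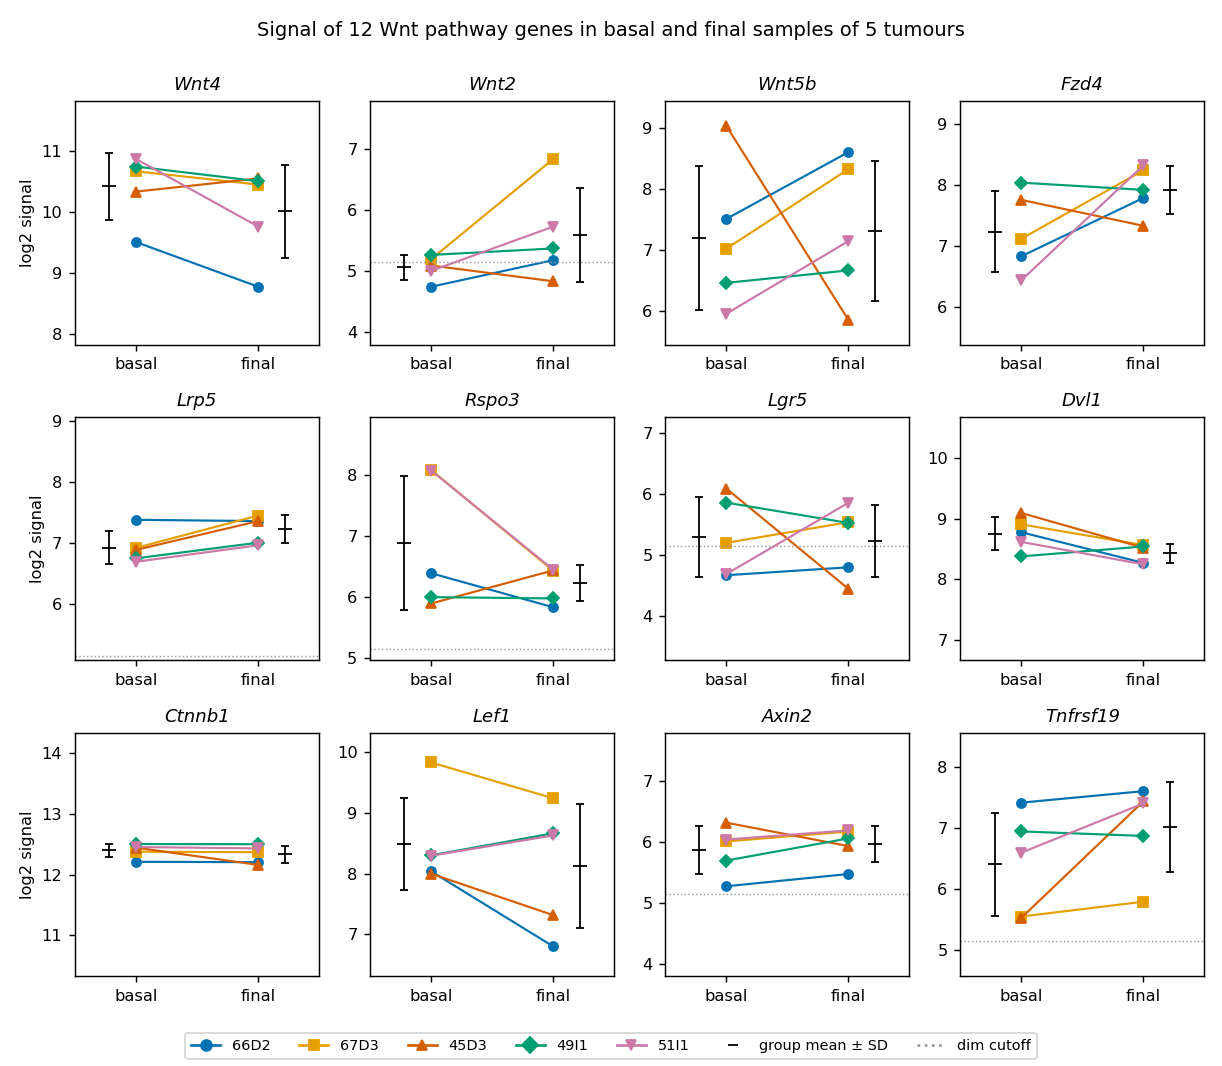
Log2 signal (y axis, 4 units high in each panel) of 12 Wnt genes in the basal and final sample (x axis) of 5 tumours (coloured lines), with group means ± SD (black) and the dim cutoff (dotted). Wnt5b crosses downward in 45D3 from 9.03 to 5.85, Rspo3 is high only in the biopsies of 67D3 and 51I1, and Ctnnb1 stays between 12.16 and 12.50.

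Receptors and co-receptors numbered 8 tested of 12, of which 6 had a higher and 2 a lower final mean, with a median of 0.24. Lrp5, a co-receptor that binds Wnt beside Frizzled, was 1 of the 2 members past an unadjusted p of 0.05 and was picked for description after its values were seen. Lrp5 signals were 7.38, 6.92, 6.88, 6.74 and 6.69 in biopsies and 7.36, 7.45, 7.35, 7.00 and 6.96 in final samples. Final signals were higher by 0.26 to 0.53 in 4 tumours and level in 66D2, whose biopsy was the brightest. In any gene the biopsy signal enters the difference, so the level of a biopsy is not independent of it. The difference was 0.30 (SE 0.11, 95% interval 0.04 to 0.57, limma adjusted p = 0.593), and the second probe set gave 0.23 (SE 0.14). It was 0.15 with the hexokinase covariate and 0.17 without 67D3 and 45D3, and the unadjusted call was lost in 4 of 5 fits without 1 tumour, all but that without 66D2. Its paralogue Lrp6 differed by 0.25 (95% interval -0.02 to 0.51) and was higher in 5 of 5 tumours, though by 0.00 in 66D2 and 0.61 in 67D3.

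Fzd4, a Frizzled that also serves the ligand Norrin in vessels, had the largest mean difference of the 36 genes. Biopsies gave 6.83, 7.12, 7.76, 8.04 and 6.44, and final samples 7.79, 8.24, 7.33, 7.92 and 8.32. The 3 tumours with the lowest biopsies were higher at the end, by 0.96, 1.12 and 1.89, and the other 2 had differences of -0.42 (45D3) and -0.12 (49I1). These 2 were also the tumours in which endothelial markers were lower (-0.90 and -0.16). A second Fzd4 probe set, under the cutoff on all 10 arrays, was instead higher in 45D3 (0.44) and lower only in 49I1 (-0.21). No fit took endothelial markers as a covariate, so a link with Fzd4 was not tested. The group means were 7.24 ± 0.66 and 7.92 ± 0.40 (SD, n = 5), a log2 difference of 0.68 (SE 0.34, limma adjusted p = 0.656), which was 0.96 without 45D3, 0.38 without 51I1 and 0.33 with the collagen and fibroblast covariate.

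Fzd1 signals were 8.56, 9.39, 9.44, 9.19 and 8.75 in biopsies and 8.88, 9.35, 8.79, 9.80 and 9.20 at the end. Its difference of 0.14 (95% interval -0.32 to 0.60) was 0.34 without 45D3, 0.019 without 49I1 and 0.060 without 51I1. It was -0.077 with the collagen and fibroblast covariate and 0.52 with hexokinase, where Fzd1 was the gene higher at an unadjusted p under 0.05 (background 7.59%). Fzd2, another Frizzled, differed by 0.25 and was higher in 4 of 5 tumours, while Fzd8 differed by 0.24 with a split of 3 and 2. Fzd3 differed by -0.10. Fzd6, which can restrain beta-catenin signalling, was the steadiest receptor: it differed by -0.11 with an SD of differences of 0.08, and ranged from 8.38 to 8.85. Fzd5 signals lay between 4.80 and 5.57 on its brighter probe set.

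In the R-spondin arm all 4 tested genes had a lower final mean, from -0.66 to -0.0011, and 0 passed at gene level. R-spondins bind Lgr receptors and remove the ubiquitin ligases Znrf3 and Rnf43, which otherwise clear Frizzled from the cell surface. Rspo3 showed a pattern in 2 tumours. On its brighter probe set biopsies gave 6.39, 8.09, 5.90, 6.00 and 8.08 and final samples 5.83, 6.43, 6.44, 5.98 and 6.45. The biopsies of 67D3 and 51I1 stood above the other 8 arrays, and their final samples were lower by 1.65 and 1.63. Over 5 tumours the difference was -0.66 (SE 0.35, limma adjusted p = 0.659), with 45D3 the tumour that was higher. It was -0.97 without 45D3, -0.42 without 67D3, -0.33 (SE 0.35) with collagen and fibroblast genes as a covariate and -0.27 (SE 0.58) with skeletal muscle.

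The second Rspo3 probe set had 5.88, 6.47, 5.87, 5.41 and 6.54 in biopsies and 5.58, 5.57, 5.22, 5.40 and 5.54 at the end. It was lower in 5 of 5 tumours, as were 4.75% of all probe sets, with differences from -1.003 in 51I1 to -0.01 in 49I1, and its mean differed by -0.57 (SE 0.17, 95% interval -0.97 to -0.18, limma adjusted p = 0.556). At an unadjusted p under 0.05 it was 1 of 2 lower probe sets among the 51 tested, with 4.59% of all probe sets lower and 3.43% higher. In 45D3 the 2 probe sets went opposite ways (0.54 and -0.65).

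Lgr5, an R-spondin receptor and marker of epithelial stem cells, was close to the dim cutoff. Its biopsies gave 4.66, 5.20, 6.09, 5.86 and 4.68 and its final samples 4.79, 5.54, 4.44, 5.52 and 5.85, with 4 of 10 signals under the cutoff. The largest single differences were in 45D3 (-1.65) and 51I1 (1.17), and the mean was -0.07 (95% interval -0.95 to 0.81). Leaving out 45D3 gave 0.33, leaving out 51I1 gave -0.38, and hexokinase as a covariate gave 0.43. Lgr4, the broadly expressed receptor, had 7.99, 7.31, 6.90, 7.37 and 7.43 in biopsies and 7.88, 7.24, 7.58, 7.00 and 7.05 in final samples, a difference of -0.05 that was -0.23 without 45D3. Znrf3 had 7.01, 6.71, 7.00, 6.74 and 6.56 in biopsies and 6.28, 6.81, 6.99, 7.22 and 6.69 in final samples. The groups had equal means of 6.80, with 66D2 down by 0.73 and 49I1 up by 0.48. Rspo1 stayed between 3.81 and 4.27, under the cutoff on all arrays.

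The cytoplasmic transducers, 7 tested of 7, were the steadiest group, with differences from -0.32 to 0.08 and a median SD of differences of 0.18. Beta-catenin (Ctnnb1), whose activity is set mainly by protein stability, had 12.21, 12.38, 12.44, 12.50 and 12.45 in biopsies and 12.20, 12.37, 12.16, 12.50 and 12.43 in final samples. It differed by -0.06 (95% interval -0.28 to 0.15), with -0.28 in 45D3 and a mean of -0.010 without it, and its other 2 tested probe sets both differed by 0.06. Apc (0.08) and Axin1 (-0.07), scaffolds of the destruction complex, had 95% intervals of -0.14 to 0.31 and -0.30 to 0.16, and the kinase Gsk3b differed by -0.05, with -0.80 in 51I1.

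Dvl1, a Dishevelled protein that relays the receptor signal, was the member lower at an unadjusted p under 0.05. The brighter probe set had 8.78, 8.91, 9.09, 8.38 and 8.62 in biopsies and 8.27, 8.56, 8.52, 8.54 and 8.25 at the end. It was lower by 0.34 to 0.57 in 4 tumours and higher by 0.16 in 49I1, whose biopsy was the dimmest. The difference was -0.32 (SE 0.13, 95% interval -0.63 to -0.02, limma adjusted p = 0.611), and the second probe set gave -0.26 (SE 0.15) with the same signs in all 5 tumours. The difference stayed between -0.45 and -0.26 whichever tumour was left out, but the unadjusted call was lost in 4 of these 5 fits, all but that without 49I1, and with the methods' t-test, each covariate, 67D3 and 45D3 both left out and the mean of the probe sets. Dvl2 (5.73, 4.91, 4.89, 5.73 and 5.22, then 5.77, 4.78, 5.90, 5.11 and 5.34) straddled the dim cutoff and differed by 0.08, with 1.01 in 45D3 and -0.62 in 49I1, and -0.15 without 45D3. Dvl3 differed by -0.01.

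Of the 4 nuclear factors, Lef1 had both the largest difference and the widest spread. Lef1 signals were 8.04, 9.82, 7.997, 8.30 and 8.29 in biopsies and 6.80, 9.24, 7.32, 8.66 and 8.63 in final samples. Tumour 67D3 was the brightest at both moments. Signal was lower in 66D2 (-1.23), 45D3 (-0.68) and 67D3 (-0.59) and higher in 49I1 (0.36) and 51I1 (0.33). The mean difference was -0.36 (SE 0.25, limma adjusted p = 0.732), -0.14 without 66D2, -0.54 without 49I1 and -0.062 when skeletal muscle was a covariate. The second probe set also had 66D2 (-1.15) and 45D3 (-0.82) lowest and differed by -0.42 (SE 0.21), but in 51I1 the signs disagreed (0.33 and -0.15).

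Tcf7, a factor also expressed in T cells, had 8.29, 8.36, 8.89, 8.81 and 10.11 in biopsies and 8.90, 8.58, 8.40, 9.05 and 9.66 at the end. Tumour 51I1 was the brightest at both moments, and the mean difference was 0.03 (95% interval -0.42 to 0.47). The difference was 0.15 without 45D3, -0.12 without 66D2 and -0.44 when skeletal muscle was a covariate. The T and NK list, with medians by tumour of 1.48, -1.12, -0.93, 1.32 and 1.34, had the sign of Tcf7 in 66D2, 45D3 and 49I1 only. Tcf7l1, mostly a repressor in the family, differed by 0.21 on its brighter and 0.23 on its other probe set, with 67D3 highest on both (0.78 and 0.98).

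Tcf7l2 showed that probe sets of 1 gene can disagree. The brightest had 10.84, 10.14, 10.51, 10.13 and 9.86 in biopsies and 11.10, 10.27, 9.99, 10.29 and 10.22 in final samples, a difference of 0.08 (SE 0.15) with only 45D3 lower (-0.52). That difference was 0.23 without 45D3, 0.0062 without 51I1, 0.31 with hexokinase as a covariate and -0.10 with collagen and fibroblast genes. Of the other 4 tested probe sets, 3 differed by 0.14 to 0.33 and 1 by -0.67 (SE 0.43). Its signal in the final sample of 45D3 was 4.13, under the cutoff, a difference of -2.59 from the biopsy, and it was higher only in 49I1 (0.80). The parts of the transcript they read were not analysed here.

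**Figure D4:**
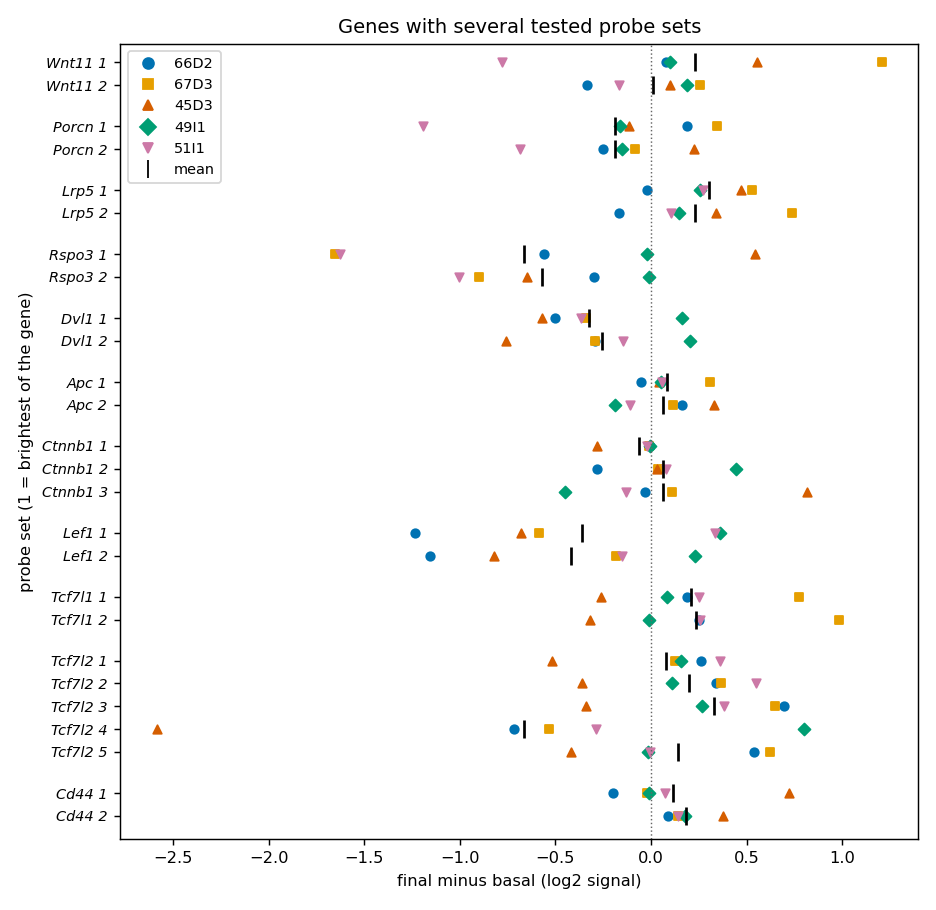
Final minus basal difference (x axis, log2 signal) of each tested probe set (y axis, 1 being the brightest of its gene) in 5 tumours (symbols) with the mean (black tick). Both Dvl1 probe sets have 49I1 alone above 0, both Lef1 probe sets have 66D2 lowest but differ in sign in 51I1, those of Rspo3 disagree in 45D3 (0.54 and -0.65), and 1 of 5 Tcf7l2 probe sets lies apart (-0.67).

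Feedback and other targets, Axin2, Nkd1, Nkd2, Myc, Cd44 and Tnfrsf19, had no member past an unadjusted p of 0.05, with 3 of these 6 genes having a higher and 3 a lower final mean. Axin2, a paralogue of Axin1 and the most used readout of the pathway, had 5.27, 6.01, 6.31, 5.69 and 6.04 in biopsies and 5.47, 6.17, 5.93, 6.06 and 6.19 at the end. It was higher by 0.15 to 0.36 in 4 tumours and lower by 0.38 in 45D3. The mean difference was 0.10 (95% interval -0.21 to 0.40), 0.22 without 45D3, 0.032 without 49I1, 0.29 with hexokinase as a covariate and -0.079 when skeletal muscle was one. All Axin2 signals were below BioB, as was the median of all tested probe sets (7.67 to 7.80 by array). They lay between 5.27 and 6.31, under that median too, so the values are differences in dim signal.

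Nkd1, an inhibitor of Dishevelled that is induced by the pathway, had 6.04, 6.24, 6.50, 6.20 and 6.29 in biopsies and 6.02, 5.89, 6.48, 6.32 and 6.22 in final samples, a difference of -0.07 (95% interval -0.31 to 0.18). Nkd2, its paralogue, differed by -0.34, with -1.09 in 45D3 and 0.57 in 51I1. Myc, a growth-promoting transcription factor with many inputs beside Wnt, had 10.42, 9.95, 10.14, 9.86 and 10.26 in biopsies and 10.12, 10.02, 10.17, 9.48 and 9.56 at the end. Its difference was -0.25 (SE 0.14, limma adjusted p = 0.669), with 51I1 (-0.70) lowest, -0.14 without 51I1 and -0.45 with the hexokinase covariate. Cd44, the hyaluronan receptor, differed by 0.11 on its brighter probe set and 0.18 on the other, which was higher in 5 of 5 tumours by 0.09 to 0.37, as were 3.96% of all probe sets.

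Tnfrsf19, a receptor of the tumour necrosis factor family that is listed as a beta-catenin target, had the second largest positive difference of the set. Biopsies gave 7.42, 5.55, 5.53, 6.95 and 6.60 and final samples 7.61, 5.80, 7.44, 6.88 and 7.41. It was higher in 4 tumours, by 1.91 in 45D3 and 0.81 in 51I1, and level in 49I1 (-0.07). The group means were 6.41 ± 0.85 and 7.03 ± 0.74 (SD, n = 5), a difference of 0.62 (SE 0.29, limma adjusted p = 0.647), which was 0.29 without 45D3, 0.99 with the collagen and fibroblast covariate and 0.14 with the hexokinase covariate.

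Further genes of the pathway came from a separate list of 78. Of the 53 tested, 38 had a higher and 15 a lower final mean, with a median of 0.07 against -0.0095 over all genes. This split was not tested. At an unadjusted p under 0.05, 2 were higher (3.77%, against 2.78% of all genes) and 1 lower (1.89%, against 4.36%). These counts were near the background, and 0 passed after adjustment. The 2 higher were Apc2, a relative of Apc (0.39, SE 0.13), and the phospholipase Plcb1 (0.49, SE 0.18). Apc2 was higher in 5 of 5 tumours, as were 3.52% of all genes. The lower gene was Tle1, a corepressor that binds TCF factors (-0.41, SE 0.17), and the next smallest p among genes with a lower mean was that of Tle2 (-0.39, SE 0.20), which did not pass. Other Tle genes, named after their values were seen, did not all share that direction: Tle3 differed by 0.18, Tle5 by 0.22 and Tle4 by -0.08, none past the threshold.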

How the data were processed

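The authors hybridised biotin-labelled RNA of 10 tumour samples to Affymetrix rat arrays and deposited 1 table of RMA signals, as the submitters' processing notes name the method; no source used here gives its version. The authors' deposited table was taken to be on the log2 scale, judged by its range, since no label states it. Its 57 control probe sets show that it precedes the removal of controls that the series text mentions. RMA gives arrays a common distribution, so a change in total RNA per cell would not show. Precision is limited by the number of arrays. BioB is the mean of its 6 control probe sets, and values of 1 probe set are not compared in level with those of another.

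Of 31042 probe sets that were not controls, 20826 had 1 symbol in the platform annotation, 436 several and 9780 none. All 65 member probe sets kept their symbol through the gene identifier in RefSeq's gene table. The dimmest 40% by mean over the arrays (below 5.14) were dropped, leaving 18625 probe sets of 10839 genes, each gene read by its brightest one. Final and basal samples were compared with limma 3.58.1 in R 4.3.3 (lmFit, eBayes, Benjamini-Hochberg over all probe sets). Tumour was a fixed block: tumour identifiers in the labels pair the samples, and the study used a paired test. As an alternative, tumour was a random effect (statmod 1.5.0). The fit had 4 residual degrees of freedom and a prior of 2.64. Same-tumour deviations correlated by 0.30 on average (one-sided exact permutation p = 0.025 over 120 pairings), and 4 of 5 final arrays correlated best with the biopsy of their own tumour. The p-values set a mean paired difference against its spread between tumours, moderated by that of other probe sets. The labels name tumours, not rats, so whether some tumours shared a rat, and were then not independent, could not be checked. The fit was tested on simulated data.

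The members, lists and the rule for named genes were chosen with earlier results of these data known. The rule names, with all signals, members past an unadjusted p of 0.05 in 1 direction in all tumours, the brightest, most different and most variable (SD of differences) member of each role, and the feedback targets Axin2, Nkd1, Lef1, Tcf7, Rnf43, Znrf3 and Lgr5; Lrp5 was added after its values were seen. Alternatives were other block, filter, normalization and test settings, array weights, covariates (the hexokinase difference, a marker list's median), the mean of a gene's probe sets and each tumour left out; leaving out 67D3 and 45D3 together was chosen after seeing the data.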

Additional observations from a re-analysis of the deposited data

Results flagged for a closer look

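Each gene's basal and final group of 5 arrays was searched for an array far from the others, by a gap to the nearest array of more than 0.71 of the group's range. Of 72 groups 4 were marked, and chance marks about 1 in 20. Lef1 in the biopsy of 67D3 had 9.82, where the next biopsy had 8.30. Tcf7l2 in the final sample of 66D2 had 11.10 against 10.29 for the next. Cd44 in the final sample of 51I1 had 9.74, with the others between 8.98 and 9.19. Axin1 in the biopsy of 66D2 had 8.23, with the others between 8.66 and 8.81. None of these arrays is from 45D3.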

How the results depend on the processing

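Over 18 other settings, none of the 20 genes described with all signals passed the adjusted threshold where it was run (smallest adjusted p = 0.147). Of these genes 12 were run in all 18 settings and 8 in 17, being too dim when 60% of probe sets were left out (Wnt2, Rspo3, Lgr5, Znrf3, Dvl2, Axin2, Nkd1 and Tnfrsf19), and 8 of the 20 kept their sign in every setting run for them. The unadjusted calls were less steady than the signs: that of Dvl1 was lost in 4 of 5 fits without 1 tumour and in 6 of 13 other settings, that of Lrp5 in 4 of 5 and 7 of 13, and other genes then made up some counts (Fzd6 in the methods' t-test, Porcn with skeletal muscle, Wnt5b with collagen and fibroblast genes and Rspo3 with probe sets averaged for the lower count). The pairing was the study's own: with no tumour block 0 probe sets passed and 1001 had an unadjusted p under 0.05. Then 0 Wnt genes were higher (background 1.35%) and 1 lower (3.23%). The count of all probe sets past the adjusted threshold was 0 in each setting except the hexokinase covariate (2). The count of Wnt genes higher at an unadjusted p under 0.05 went from 1 to 0 with quantile normalization (background 2.56%) and with the mean of a gene's probe sets (3.14%). It went to 2 under a random tumour block (Fzd4 and Lrp5, background 2.8%). It went to 3 with array weights (background 8.28%), with the collagen and fibroblast covariate (2.2%) and without 67D3 and 45D3 together (9.34%). The count lower went from 1 to 3 using array weights (background 9.68%), hexokinase (6.7%) or only 3 tumours (8.45%). Leaving out 1 tumour gave 0 to 5 higher: 5 without 45D3 (background 8.5%), 0 without 67D3 (1.54%) or 51I1 (2.44%). It gave 0 to 2 lower: 2 without 45D3 (10.7%), 0 without 66D2 (2.38%) or 67D3 (2.09%). The median over the Wnt genes was -0.072 with the skeletal muscle covariate and between -0.03 and 0.04 with 1 tumour left out. Signs turned most often with the 2 marker covariates, which themselves differed between the moments. For Wnt5b the SE was 0.97 with skeletal muscle, against 0.66 without a covariate. With skeletal muscle the differences were -0.014 for Wnt2, -1.12 for Wnt5b, 0.10 for Lgr4, -0.065 for Tcf7l2, -0.079 for Axin2, 0.035 for Nkd1, -0.44 for Tcf7 and 0.094 for Znrf3. With collagen and fibroblast genes they were -0.87 for Wnt5b, -0.077 for Fzd1, 0.14 for Lgr4, -0.10 for Tcf7l2, -0.034 for Axin2, -0.18 for Tcf7 and 0.10 for Znrf3. With the hexokinase covariate Lgr5 was 0.43, Ctnnb1 0.013 and Dvl2 -0.25; with array weights Lgr5 was 0.16 and Dvl2 -0.050; without 67D3 and 45D3 Lgr5 was 0.32, Dvl2 -0.16 and Nkd1 0.012; and the mean of its probe sets gave Ctnnb1 0.019. Leaving out 1 tumour turned Dvl2 (-0.15 to 0.26), Lgr4 (-0.23 to 0.035), Lgr5 (-0.38 to 0.33), Nkd1 (-0.11 to 0.0044), Tcf7 (-0.12 to 0.15), Wnt5b (-0.17 to 0.95) and Znrf3 (-0.12 to 0.18). The cause was not tested. Signal over background limits Wnt2, Lgr5 and Dvl2, each with 4 of 10 arrays under the dim cutoff. Both group means were below BioB (8.04) in 24 of the 36 genes. That level was not particular to them, since the median of all tested probe sets was 7.67 to 7.80 by array, also below BioB.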
